A study of Homo sapiens with 8 samples.

Results

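Versipelostatin (VST), a macrocyclic microbial product studied as an inhibitor of the unfolded protein response during glucose deprivation, was given to HT1080 cells in normal growth medium, and their transcripts were compared with those of untreated cells. HT1080 is an established human fibrosarcoma cell line. The cells had 10 µM VST for 18 h (VST), against cells left in the normal medium, which contained glucose and serum, for 18 h (control). Outside this pair, the study had arrays of cells with 10 µM compound C (CC, a kinase inhibitor) or 100 µM phenformin (Phen, a biguanide that blocks mitochondrial respiration) in the same medium, and of cells in 10 mM 2-deoxyglucose (2DG, a glucose analogue that blocks glycolysis) with VST (2DG+VST), CC (2DG+CC), Phen (2DG+Phen) or no compound (2DG). VST was kept as a stock in dimethyl sulfoxide, and whether the control culture had the solvent is not given in the sources used here. All conditions used the same cell line, and each had 1 Affymetrix U133 Plus 2.0 array, so that 2 of the 8 arrays enter the comparison and the differences have no replicate check, no error and no p-value. The number of arrays limits their precision.

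Values are deposited log2 intensities, and a difference is the value on the VST array minus that on the control array, so that 1 stands for 2-fold. From the 54613 probe sets that are not controls, 15503 were retained because they reached log2 6 on at least 1 of the 8 arrays, and these named 8429 genes. A gene is given by its probe set with the highest mean over the 8 arrays. The probe sets just inside that limit were of SRC (6.0001 on its highest array, difference 0.07) and RCAN3 (6.0004, −0.13), and those just outside it were of CEP72 (5.9999, 0.06) and PLEKHF1 (5.9998, 0.49). The background median was the median of all non-control probe sets on an array (3.17 for VST, 3.16 for control), and a level below it was treated as not above background, and a difference from it is given as a bound.

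The unfolded protein response is the program by which cells adapt to misfolded protein in the endoplasmic reticulum (ER). Its sensors are ATF6, IRE1 (coded by ERN1) and PERK (coded by EIF2AK3). ATF6 and XBP1, the factor spliced by IRE1, drive genes for ER chaperones, whereas PERK phosphorylates the initiation factor eIF2α and so favours translation of ATF4. ATF4 drives genes for amino acid synthesis, amino acid uptake and CHOP (coded by DDIT3), and other eIF2α kinases, which sense amino acid shortage or other stresses, also lead to it. A factor of another kind, E2F, drives genes of DNA replication when cells enter S phase.

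The sequences that these factors are known to bind occur in the promoters of several genes that carry the results below. Stretches are shown from the RefSeq promoter table (GRCh38.p14, 250 bases before to 50 after each gene's start), with 25 bases on either side of the match in capitals. The first set holds the C/EBP-ATF response element (TGATGNAAN on either strand) in genes that were higher with VST, ASNS at chr7:97872443-97872501 (− strand), CHAC1 at chr15:40953236-40953294 (+ strand) and ATF3 at chr1:212565191-212565249 (+ strand).
ASNS: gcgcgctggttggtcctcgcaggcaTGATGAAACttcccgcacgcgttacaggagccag
CHAC1: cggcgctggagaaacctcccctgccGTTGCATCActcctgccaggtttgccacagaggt
ATF3: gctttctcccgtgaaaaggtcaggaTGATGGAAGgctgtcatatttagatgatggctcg

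The second set holds an E2F site (TTTCGCGC or TTTGGCGC on either strand) in replication genes that were lower with VST, POLE2 at chr14:49688187-49688244 (− strand), MCM3 at chr6:52284714-52284771 (− strand) and MCM6 at chr2:135876563-135876620 (− strand). MCM6 has 4 matches, of which 1 is in capitals and another overlaps it on the other strand.
POLE2: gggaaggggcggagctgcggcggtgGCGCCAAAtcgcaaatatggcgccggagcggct
MCM3: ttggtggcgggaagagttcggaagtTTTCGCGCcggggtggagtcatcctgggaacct
MCM6: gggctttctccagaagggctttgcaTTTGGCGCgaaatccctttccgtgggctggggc

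The third set holds the ER stress response element, CCAAT followed after 9 bases by CCACG, in the genes of the chaperones GRP78 and GRP94, which differed little. HSPA5 is shown at chr9:125241366-125241434 (− strand) and HSP90B1 at chr12:103930191-103930259 (+ strand, 1 of its 2 matches).
HSPA5: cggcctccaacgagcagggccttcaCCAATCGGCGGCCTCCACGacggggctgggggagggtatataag
HSP90B1: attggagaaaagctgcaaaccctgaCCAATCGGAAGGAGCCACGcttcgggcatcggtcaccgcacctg

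VST left most transcripts close to their control level, and small sets of genes stood at either end. At least 2-fold higher were 443 probe sets (2.86%) and 207 genes (2.46%), and at least 2-fold lower were 522 probe sets (3.37%) and 209 genes (2.48%). Differences of 4-fold or more were counted at 45 probe sets that were higher and 23 that were lower, while 78.5% of probe sets lay within 1.5-fold. The median difference over probe sets was −0.01, with an SD of 0.53 across probe sets, which are not replicates. The poly-A control transcripts read 0.05 higher on the VST array than on the control array, the hybridization controls 0.05 higher, and the medians over retained probe sets were 7.26 on both arrays. Of 11 mesenchymal markers 8 reached log2 6 on the VST array and 8 on the control array (VIM at 13.51 with VST and 13.50 in control cells), none of 7 blood and immune markers did on either, and of the epithelial and endothelial markers KRT8, KRT18 and TIE1 did on both. As cells were measured in bulk, fewer cells of a kind and less RNA per cell cannot be told apart.

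**Figure D1:**
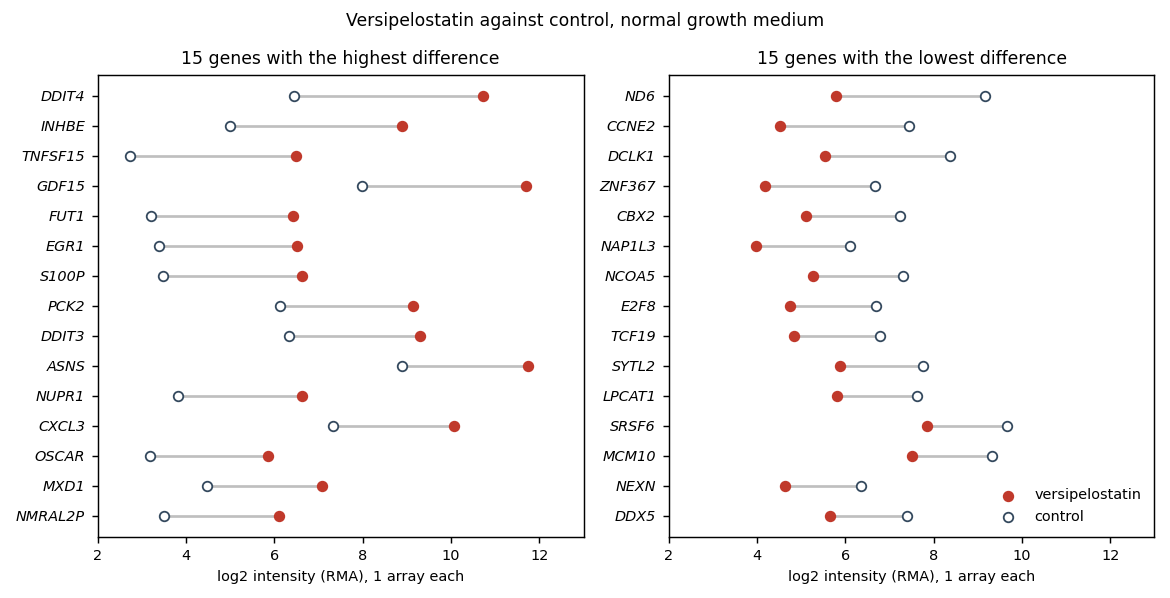
Log2 intensity (x axis) on the VST array (filled) and the control array (open) of the 15 genes with the highest and the 15 with the lowest difference, 1 array each and no error bars. DDIT4 (10.73 with VST, 6.45 in control) leads the higher genes and ND6 (5.78 with VST, 9.16 in control) the lower ones.

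Several of the highest genes are known as stress-response genes that ATF4 or CHOP drives, among them DDIT4, INHBE, GDF15, DDIT3, ASNS and NUPR1. DDIT4, an inhibitor of the growth kinase complex mTORC1, had the largest difference of all genes, with 10.73 on the VST array against 6.45 on the control array (4.28). INHBE, a subunit of activin hormones, stood at 8.89 with VST and 5.00 in control cells (3.89). GDF15, a secreted stress hormone, was at 11.71 with VST and 7.99 in control cells, and DDIT3 at 9.30 with VST and 6.33 in control cells (2.97). In control cells these 4 genes lay between 5.00 and 7.99, against a background median of 3.16. TNFSF15, a cytokine of the TNF family, was not above background in control cells (2.73), so that its level of 6.49 with VST was higher by at least 3.33. FUT1, a fucosyltransferase, stood at 6.43 with VST and 3.22 in control cells, S100P, a calcium-binding protein, at 6.62 with VST and 3.49 in control cells, and OSCAR, an immune receptor, at 5.86 with VST and 3.17 in control cells. Their control levels were close to the background median, so the differences (3.21, 3.13 and 2.68) rest on dim control signals. TNFSF15 and FUT1 reached log2 6 only on the VST array, so their retention and their place among the highest genes rest on that array.

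ATF4 and CHOP targets formed the list with the most members that were higher. Of 39 genes in the list 34 were measured, 24 of these (70.6%, beside 2.46% of all genes) were at least 2-fold higher and 1 was at least 2-fold lower, and the median difference was 1.30, beside −0.02 over all genes. Asparagine synthetase, ASNS, stood at 11.73 with VST and 8.89 in control cells (2.84). The cystine transporter gene SLC7A11 was at 9.95 with VST and 7.95 in control cells (2.00). PCK2, a mitochondrial enzyme that makes phosphoenolpyruvate and no member of the list, was at 9.13 with VST and 6.13 in control cells (3.003). The serine pathway enzymes PHGDH (8.76 with VST, 6.83 in control) and PSAT1 (11.57 with VST, 10.27 in control) were both more than 2-fold higher, and PSPH, which completes that pathway, differed by 0.71. Among the amino acid transporters SLC7A5 (1.30), SLC3A2 (1.24) and SLC1A4 (1.14) were past 2-fold, whereas SLC38A2, a glutamine carrier that is also known as an ATF4 target, differed by 0.11. Other members past 2-fold upward were TRIB3, an inhibitory pseudokinase, with 11.0035 on the VST array and 8.71 on the control array (2.30), ATF3 with 7.31 on the VST array and 5.13 on the control array (2.18; another of its probe sets 0.85), and CHAC1, which degrades glutathione, with 7.47 on the VST array and 4.97 on the control array (2.50). NUPR1, a stress-induced chromatin protein, was at 6.63 with VST and 3.81 in control cells (2.82), a dim control signal. ATF4 itself was at 12.20 with VST and 11.48 in control cells (0.72), below 2-fold. EIF4EBP1, which codes for the translation repressor 4E-BP1, was at 11.12 with VST and 10.36 in control cells (0.77). The member that was lower was ATF5 (5.34 with VST, 6.35 in control), a transcription factor related to ATF4.

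Cytosolic tRNA synthetases, which load amino acids onto tRNAs and include known ATF4 targets, had a median difference of 0.49 over 17 measured genes, with 3 (17.6%, beside 2.46% of all genes) at least 2-fold higher and none lower. SARS1, the seryl enzyme, stood at 11.26 with VST and 9.51 in control cells (1.75; another probe set 2.42). WARS1, the tryptophanyl enzyme, was at 9.88 with VST and 8.57 in control cells (1.31), and GARS1, the glycyl enzyme, at 12.32 with VST and 11.15 in control cells (1.17). EPRS1, which loads glutamate and proline, lay just under 2-fold (0.98).

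**Figure D2:**
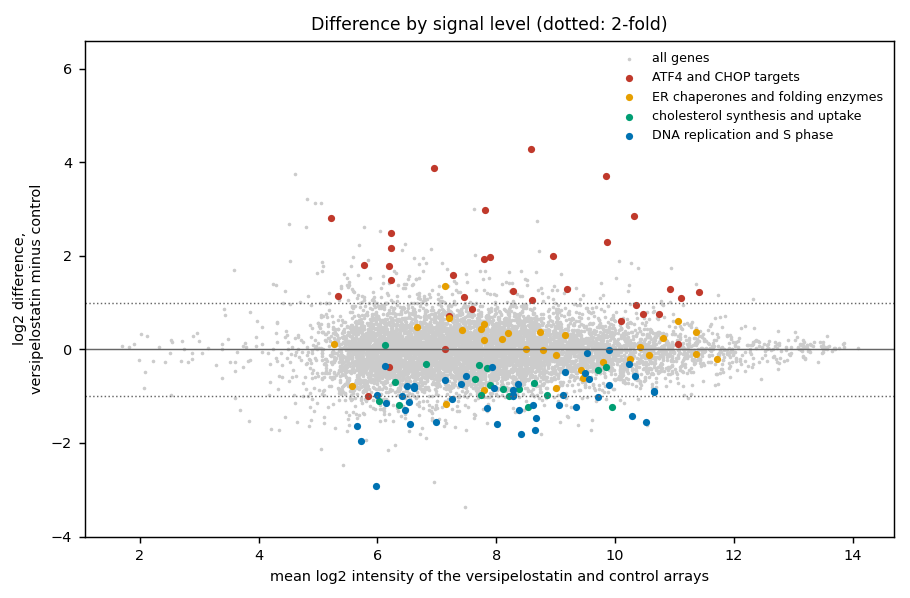
Difference of VST minus control (y axis, log2) against the mean log2 intensity of the 2 arrays (x axis), 1 point a gene, with 4 lists coloured and dotted lines at 2-fold. ATF4 and CHOP targets (median 1.30) lie above and DNA replication genes (median −0.97) below the bulk of genes over a wide range of intensity, and the ER chaperones (median 0.08) lie around 0.

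ER chaperones and folding enzymes had no such difference. Over 30 measured genes the median was 0.08, with 1 gene at least 2-fold higher and 1 at least 2-fold lower (3.33% each, near the 2.46% and 2.48% of all genes), and 17 members lay above 0 and 13 below. HSPA5, the gene of the ER chaperone GRP78, stood at 11.55 with VST and 11.19 in control cells (0.36), and its other retained probe set read −0.19. HSP90B1, the gene of GRP94, was at 10.44 with VST and 10.39 in control cells (0.05; other probe set −0.13). DNAJB9, a co-chaperone of GRP78, was the member that was higher, with 7.81 on the VST array and 6.45 on the control array (1.36), and its other probe sets read 1.11 to 1.99. SDF2L1 was the member that was lower, at 6.57 with VST and 7.74 in control cells (−1.16). CRELD2 (−0.87) and the calcium-binding chaperone CALR (−0.82; other probe sets −1.62 to −0.72) also lay below 0.

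Among the sensors and transcription factors of the unfolded protein response, 2 of 13 measured genes (15.4%, beside 2.46% of all genes) were at least 2-fold higher and none lower (median 0.40). ERN1 stood at 6.24 with VST and 4.72 in control cells (1.52), although its other probe set differed by 0.49. XBP1 was at 8.05 with VST and 6.91 in control cells (1.14), and its splicing was not analysed here. ATF6 was at 8.19 with VST and 7.26 in control cells (0.92), PPP1R15A, the subunit that directs dephosphorylation of eIF2α, at 7.94 with VST and 7.13 in control cells (0.81), and EIF2AK3 at 6.05 with VST and 6.37 in control cells (−0.31). Of these 13 genes 10 lay above 0 (of all genes, 4051 of 8429 did), so that ERN1 and XBP1 stood at the upper end of a list that leaned upward. In ER-associated degradation, which removes misfolded proteins, 2 of 20 genes (10.0%) were at least 2-fold higher (median 0.21), CREBRF, a regulator of this response, with 6.81 on the VST array and 4.57 on the control array (2.24), and NFE2L1, a factor known for driving proteasome genes, with 9.66 on the VST array and 8.40 on the control array (1.26). HERPUD1 differed by 0.89. SEL1L, its partner in the membrane complex of this pathway, differed by 0.80, and its other probe sets read −0.04 to 0.28. None of 44 genes of ER translocation and vesicle transport passed 2-fold (median 0.05), SEC24D of the COPII coat (0.88) and SEC63 of the translocon (0.78) being the most different.

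**Figure D3:**
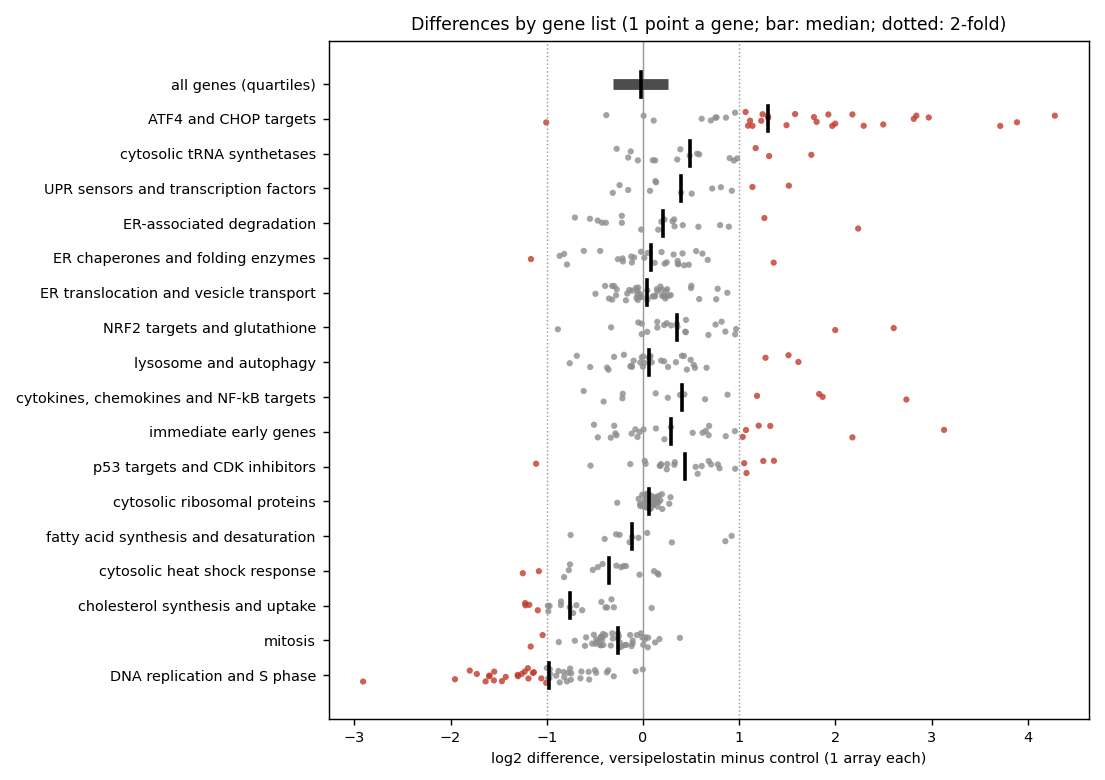
Difference of VST minus control (x axis, log2) for the measured genes of 17 lists, 1 point a gene, red at 2-fold or more, with each list's median as a black bar and the quartiles of all genes in the top row. Only the ATF4 and CHOP list has its median past 2-fold (1.30), and the DNA replication list (−0.97) has no member above 0 in the deposited values.

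Genes of DNA replication and S phase were lower as a group. All 47 that were measured lay below 0 (46 with each array centred on its median, which puts DBF4 just above it), with 21 past 2-fold on the lower side (44.7%, beside 2.48% of all genes) and none on the higher. The median was −0.97, whereas 4375 of 8429 genes lay below 0 in all. Cyclin E2, CCNE2, which drives entry into S phase, stood at 4.52 with VST and 7.43 in control cells (−2.91), and E2F8, a repressor of the E2F family, at 4.75 with VST and 6.71 in control cells (−1.95). MCM10, a factor that opens the replication fork, was at 7.51 with VST and 9.31 in control cells (−1.80), and its other probe sets read −2.07 and −1.99. GINS1, a subunit of the replicative helicase, was at 7.78 with VST and 9.51 in control cells (−1.73). Other helicase genes showed the same direction, GINS2 (−1.59), MCM3 (−1.30), MCM6 (−1.23), MCM4 (−1.20) and MCM2 (−1.01), and so did PCNA, the sliding clamp (−1.43), FEN1, which processes Okazaki fragments (−1.55), CDC6 (−1.55) and CDT1 (−1.30), which load the helicase, and UNG, a DNA repair glycosylase (−1.47). The least different were DBF4 (−0.00), which activates the kinase CDC7, and the primase gene PRIM1 (−0.08). Outside the list, ZNF367, a zinc finger gene, stood at 4.19 with VST and 6.66 in control cells (−2.48), and TCF19, a gene first known for its expression in cycling cells, at 4.85 with VST and 6.78 in control cells (−1.93). Mitosis genes had a median of −0.26 over 47 measured genes, of which 39 lay below 0. The 2 that were at least 2-fold lower (4.26%, near the 2.48% of all genes) were the spindle motor KIF11 (7.27 with VST, 8.44 in control, −1.17) and the survivin gene BIRC5 (8.92 with VST, 9.96 in control, −1.04), which is under 2-fold by the median of its probe sets (−0.83). The mitotic regulator FOXM1 differed by −0.71. Among histones 1 of 12 measured genes (8.33%) was at least 2-fold lower, the variant gene H2AX (9.12 with VST, 10.23 in control, −1.11).

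Among 24 measured p53 targets, CDK inhibitors and G1 cyclins, 21 lay above 0 (of all genes, 4051 of 8429 did), 4 (16.7%, beside 2.46% of all genes) were past 2-fold upward and 1 (4.17%, beside 2.48%) downward, and the median was 0.44. The CDK inhibitor genes CDKN1A (8.18 with VST, 7.49 in control, 0.68) and CDKN1B (7.81 with VST, 7.56 in control, 0.25) did not reach 2-fold, and the list also holds cell death genes and cyclins that promote the cycle. The higher genes included CCNG2, a cyclin linked to arrest (7.86 with VST, 6.499 in control, 1.36), GADD45A, a stress and repair gene (10.84 with VST, 9.59 in control, 1.25), and BTG1, an antiproliferative gene (9.94 with VST, 8.87 in control, 1.08). The lower one was the G1 cyclin CCND3 (6.45 with VST, 7.57 in control, −1.11), while CCND1 differed by −0.55 and CCND2 by 0.71. MXD1 and MXI1, antagonists of MYC, differed by 2.61 and 1.498, but the other probe sets of MXD1 read −0.02 to 1.85.

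The promoter matches were counted for the genes at either end. Of the retained genes 7077 were in the promoter table. The C/EBP-ATF element was present in 3.67% of all promoters in the table and in 129 of those 7077 (1.82%), in 11 of 172 genes at least 2-fold higher (6.40%) and in 3 of 172 at least 2-fold lower (1.74%). It was in 4 of the 19 higher ATF4 and CHOP targets that have a promoter there (21.1%), ASNS, CHAC1, ATF3 and SLC3A2. That is near the share of the whole list, 5 of 25 (20.0%). E2F sites were in 1.18% of all promoters and 2.32% of those of retained genes, in 3 of 172 genes at least 2-fold higher (1.74%) and 15 of 172 at least 2-fold lower (8.72%). They were in 6 of the 18 lower replication genes with a promoter there (33.3%), GINS1, POLE2, CDC6, MCM3, MCM6 and MCM2, beside 11 of 40 (27.5%) in the whole replication list. The ER stress response element was in 0.0806% of all promoters and in 10 of 7077 retained genes, among them 5 of 27 chaperone genes, HSPA5 (0.36), HSP90B1 (0.05), CANX (−0.09), CALR (−0.82) and CRELD2 (−0.87). A match describes letters in this window and not a bound site.

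Cholesterol genes were lower as well, and the fatty acid genes were not as a group. Of 19 measured genes for cholesterol synthesis and uptake 18 lay below 0 (of all genes, 4375 of 8429 did), 4 (21.1%, beside 2.48% of all genes) were at least 2-fold lower and none higher, with a median of −0.76. With quantile normalization or scaling on the poly-A controls 7 were at least 2-fold lower. IDI1, an isomerase of the isoprenoid pathway, stood at 9.33 with VST and 10.56 in control cells (−1.22), although its other probe sets ranged from −1.06 to −0.03. EBP, a sterol isomerase, was at 7.92 with VST and 9.14 in control cells (−1.22; other probe set −1.26), and NSDHL, a sterol dehydrogenase, at 5.77 with VST and 6.96 in control cells (−1.18; −1.34). HMGCS1, which makes the precursor of mevalonate, was at 5.48 with VST and 6.58 in control cells (−1.09; −1.94). INSIG1, a feedback regulator of this pathway, differed by −0.99 and SREBF2, the gene of its transcription factor, by 0.09. None of 11 fatty acid genes passed 2-fold (median −0.11), with ACSS2 (0.92), which makes acetyl-CoA from acetate, and ME1 (0.86), which makes NADPH, on the higher side and LPIN1 (−0.75), a phosphatidate phosphatase, on the lower.

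Among 14 measured cytokines, chemokines and NF-κB targets 4 (28.6%, beside 2.46% of all genes) were at least 2-fold higher and none lower (median 0.41). CXCL3, a neutrophil-attracting chemokine, stood at 10.06 with VST and 7.32 in control cells (2.74). IL6 was at 6.0006 with VST and 4.13 in control cells (1.87, from a dim control signal), IL1A at 7.61 with VST and 5.78 in control cells (1.83), and NFKBIZ, an inducible regulator of NF-κB, at 7.84 with VST and 6.66 in control cells (1.19). Interferon-induced genes had no member past 2-fold of 11 measured (median 0.36). Of 27 immediate early genes, which growth signals induce quickly, 6 (22.2%, beside 2.46% of all genes) were at least 2-fold higher and none lower (median 0.29). These include ATF3, already counted in the ATF4 and CHOP list. EGR1, a zinc finger factor, was at 6.51 with VST and 3.38 in control cells (3.13), also a dim control signal, and its other probe sets read 0.99 and 1.75. DUSP1, a phosphatase of MAP kinases, stood at 9.42 with VST and 8.09 in control cells (1.32), and MYC at 9.74 with VST and 8.53 in control cells (1.203).

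Genes of redox defence, nutrient sensing and lysosomes had a few members past 2-fold upward, beside 2.46% of all genes. Among 24 NRF2 and glutathione genes 2 (8.33%) were at least 2-fold higher and none lower (median 0.36), SLC7A11, already given as an ATF4 target, and NMRAL2P, a pseudogene known as an NRF2 target (6.10 with VST, 3.50 in control, 2.61, from a dim control signal). The redox enzyme genes TXNRD1 (0.97) and SRXN1 (0.96) lay just below that, and HMOX1, heme oxygenase, differed by 0.25. In the AMPK and mTORC1 list 3 of 17 (17.6%) were at least 2-fold higher (median 0.08), DDIT4, SESN2, an inhibitor of mTORC1 under leucine shortage (8.06 with VST, 6.48 in control, 1.58), and PRKAB2, a subunit of AMPK (7.33 with VST, 6.27 in control, 1.06). DDIT4 and SESN2 are already counted in the ATF4 and CHOP list. Of 34 lysosome and autophagy genes 3 (8.82%) were at least 2-fold higher (median 0.07), the autophagy genes WIPI1 (7.40 with VST, 5.88 in control, 1.51) and MAP1LC3B (9.34 with VST, 8.07 in control, 1.27) and NPC1, a lysosomal cholesterol carrier (9.89 with VST, 8.28 in control, 1.62), whose other probe set read −0.60, which puts the median of its probe sets at 0.51.

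Energy metabolism lists had few genes past 2-fold. Of 21 glycolysis genes 1 (4.76%, beside 2.46% of all genes) was at least 2-fold higher, the glucose transporter SLC2A3 (8.53 with VST, 7.04 in control, 1.497; other probe sets 1.42 to 1.56), and the median was −0.09. Among 16 further targets of the hypoxia factor HIF-1 there were 2 (12.5%, beside 2.46% of all genes), MXI1 and the angiogenic factor VEGFA (9.13 with VST, 8.06 in control, 1.07), whose probe sets had a median of 0.82. VEGFA is also counted in the ATF4 and CHOP list. TXNIP, an inhibitor of glucose uptake, stood at 4.33 with VST and 5.32 in control cells (−0.99), and its other probe sets ranged from −0.35 to 0.27. ARRDC3, of the same arrestin family, was at 7.03 with VST and 5.65 in control cells (1.38). Of 54 nuclear-coded genes of oxidative phosphorylation 1 (1.85%, near the 2.48% of all genes) was at least 2-fold lower, ATP5MC1, a subunit of ATP synthase (9.58 with VST, 10.72 in control, −1.14). In that list 38 lay below 0 (of all genes, 4375 of 8429 did), and the median was −0.16. ND6, a subunit of respiratory complex I coded in mitochondrial DNA, was the lowest of all genes, at 5.78 with VST and 9.16 in control cells (−3.38), by 1 probe set. It also lay below the same control array with CC (−2.09), Phen (−3.59) and 2DG (−2.84).

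Among the remaining lists, matrix genes had 3 of 29 members (10.3%) at least 2-fold higher and 1 (3.45%) lower (median 0.05), beside 2.46% and 2.48% of all genes. COL6A3, a collagen VI chain, stood at 11.02 with VST and 9.13 in control cells (1.89), FN1, fibronectin, at 8.42 with VST and 7.16 in control cells (1.26), TNC, tenascin C, at 10.30 with VST and 9.20 in control cells (1.09), and THBS1, thrombospondin, at 4.03 with VST and 5.68 in control cells (−1.65; other probe set −1.58). CD44, a hyaluronan receptor, gave −0.41 by its brightest probe set and 0.98 by the median of its probe sets, so that its direction depends on the probe set. Of 16 cytosolic heat shock genes 2 (12.5%, beside 2.48% of all genes) were at least 2-fold lower and none higher (median −0.35), DNAJB6 (6.38 with VST, 7.63 in control, −1.25) and DNAJB1 (7.10 with VST, 8.18 in control, −1.08; other probe set −0.55), both co-chaperones of HSP70, and DNAJB1 is under 2-fold by the median of its probe sets (−0.82). Splicing factors had 2 of 42 (4.76%) at least 2-fold lower (median −0.25), SRSF6 (7.84 with VST, 9.66 in control, −1.81; other probe set −1.48) and SRSF1 (10.71 with VST, 11.76 in control, −1.05; median of its probe sets −0.92). BMP and TGF-β targets had 1 of 16 higher, the repressor gene SKIL (7.99 with VST, 6.77 in control, 1.22), which is under 2-fold by the median of its probe sets (0.85; other probe set 0.48), and a median of 0.03 that turns below 0 with the median over probe sets and with scaling on the poly-A controls. No member passed 2-fold among 49 cytosolic ribosomal proteins (median 0.07), 43 ribosome biogenesis genes (−0.03), 29 proteasome genes (−0.23), 23 YAP and SRF targets (0.03, below 0 with scaling on the poly-A controls) or 15 iron genes (−0.05). Further genes at the lower end were DCLK1, a microtubule-linked kinase (5.53 with VST, 8.36 in control, −2.83; other probe set −2.48), CBX2, a Polycomb protein (5.11 with VST, 7.25 in control, −2.14), NAP1L3 (−2.12), NCOA5 (−2.03), SYTL2 (−1.88), LPCAT1, a phospholipid enzyme (−1.82), NEXN, an actin-binding protein (−1.74), and the RNA helicase gene DDX5 (−1.74), the last by the 1 retained probe set that names it alone. NAP1L3 and NEXN reached log2 6 only on the control array, so their retention and their place among the lowest genes rest on that array.

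Other probe sets of the same genes gave a check within the same arrays. Of the 207 higher genes 93 had further retained probe sets, 133 in all, of which 121 differed in the same direction, 85 by 2-fold or more, and 2 by 2-fold or more in the opposite direction. The 209 lower genes had 83 further probe sets on 56 genes, of which 77 differed in the same direction, 41 by 2-fold or more, and 2 by 2-fold or more in the opposite direction. Probe sets of a gene share the RNA and the array, so they are no replicates of the treatment.

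The design also gave VST to cells in 2DG, on arrays that the comparison above does not use. There, 2DG+VST against 2DG had 345 genes at least 2-fold higher (4.09%) and 1688 at least 2-fold lower (20.0%), and the poly-A controls read 0.47 higher on the 2DG+VST array than on the 2DG array, a shift whose part in these values was not tested. Of the 207 genes higher with VST in normal medium, 87 (42.0%) were lower and 22 (10.6%) higher by 2-fold or more with VST in 2DG. Of the 209 genes lower with VST in normal medium, 54 (25.8%) were lower and 21 (10.0%) higher in 2DG. Across the 15503 probe sets, which are not independent, the VST differences in the 2 media had a Pearson correlation of −0.04 and a Spearman correlation of −0.05.

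ATF4 and CHOP targets, the highest list in normal medium, were mostly lower with VST in 2DG. Their median was 1.30 for VST against control (−0.02 over all genes) and −1.47 for 2DG+VST against 2DG (−0.18 over all genes). In 2DG 21 of 34 were lower and 2 higher by 2-fold or more with VST, beside 20.0% and 4.09% of all genes. DDIT4 stood at 5.19 in 2DG+VST and 8.65 in 2DG (−3.46), INHBE at 3.91 in 2DG+VST and 7.94 in 2DG (−4.03), ASNS at 8.99 in 2DG+VST and 11.37 in 2DG (−2.37) and TRIB3 at 7.37 in 2DG+VST and 10.82 in 2DG (−3.45). The 2 that were higher were ATF3, at 9.19 in 2DG+VST and 6.36 in 2DG (2.83), and GDF15, at 11.10 in 2DG+VST and 10.06 in 2DG (1.04), while DDIT3 differed by −0.12. EGR1 and MYC, higher with VST in normal medium, were also higher with it in 2DG (4.32 and 3.45). The replication genes had a median of −0.97 in normal medium and 0.48 in 2DG, the cholesterol genes −0.76 in normal medium and 0.41 in 2DG, and the ER chaperones 0.08 in normal medium and −1.11 in 2DG. With 1 array a condition none of these differences between media could be tested.

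**Figure D4:**
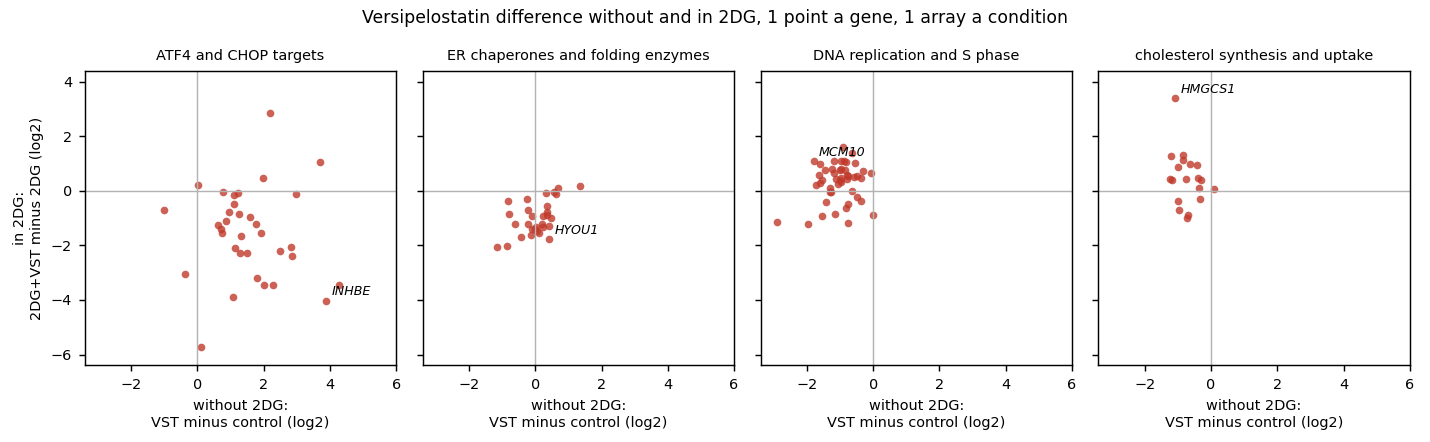
Difference of VST minus control (x axis, log2) and of 2DG+VST minus 2DG (y axis, log2), 1 point a gene, for 4 lists, with lines at 0. ATF4 and CHOP targets lie mostly to the right and below 0 (medians 1.30 and −1.47), replication genes to the left and mostly above 0 (−0.97 and 0.48).

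The other compounds in normal medium were set against the same control array, so their values are given side by side only, and Phen was given at another dose than VST and CC. The median of the ATF4 and CHOP targets was 1.30 with VST, 1.28 with CC and 0.55 with Phen, each against control. DDIT4 differed by 4.28 with VST, 3.55 with CC and 1.81 with Phen, and ASNS by 2.84 with VST, 2.50 with CC and 2.04 with Phen. Replication genes had medians of −0.97 with VST, −0.52 with CC and −0.60 with Phen, where CCNE2 differed by −2.91 with VST, −0.13 with CC and −1.12 with Phen. Cholesterol genes had medians of −0.76 with VST, 0.36 with CC and 0.55 with Phen, and HMGCS1 differed by −1.09 with VST, 0.61 with CC and 1.78 with Phen. For the ER chaperones the medians were 0.08 with VST, −0.11 with CC and −0.05 with Phen, and HSPA5 differed by 0.36 with VST, −0.60 with CC and 0.09 with Phen. CXCL3 differed by 2.74 with VST, 1.07 with CC and −1.47 with Phen, and IL1A by 1.83 with VST, 0.07 with CC and 0.14 with Phen. ND6 differed by −3.38 with VST, −2.09 with CC, −3.59 with Phen and −2.84 with 2DG. DCLK1 differed by −2.83 with VST, −2.82 with CC, −2.21 with Phen and −1.81 with 2DG. EGR1 differed by 3.13 with VST, 2.94 with CC, 3.04 with Phen and 2.66 with 2DG. What part the shared control array has in the values of this paragraph, of lists and of single genes such as ND6, DCLK1 and EGR1, was not tested. The 2DG array without compound, against the same control, had a median of 1.17 for the ATF4 and CHOP targets, 1.25 for the ER chaperones, −0.71 for the cholesterol genes and −0.75 for the replication genes.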

How the data were processed

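HT1080 cells of 8 conditions were measured on 1 array each. Per the labels, total RNA was reverse transcribed and labelled with biotin, and the authors made the deposited log2 values with RMA, which corrects background, normalizes between arrays and summarises probe sets. The sources used here do not name the software that ran RMA or its version. RMA assumes that most transcripts do not differ, so a shift shared by most of them would be removed.

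No step was added to the deposited log2 values. The 62 control probe sets were left out, and probe sets reaching log2 6 on at least 1 array were retained. Symbols came from the platform annotation, updated by gene ID to RefSeq (GRCh38.p14). Of the retained probe sets 13771 carried 1 symbol, 769 several and 963 none, and only the first kind named genes. Differences were counted from 2-fold. With 1 array a condition no test was run.

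The genes named are the 15 at the top and the 15 at the bottom by difference, up to 4 members of each of 35 lists with the largest difference, and 13 genes named whatever their values. Those 13 hold genes of the unfolded protein response and its targets, and also EIF4EBP1, VEGFA and HMOX1. Other list members named in the text were chosen after their values were seen. The comparison, the lists and the rule were chosen with earlier results of these data known.

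The alternatives were other fold thresholds and expression limits, centring, quantile normalization, scaling on the poly-A controls, dropping probe sets open to more than 1 transcript, genes in place of probe sets, and the median of all retained probe sets of a gene. The calculation was tested on simulated data with shifts well past 2-fold and little noise, which checks the counting and not the measured differences. Promoter sequences are from RefSeq, and genes without an entry there were not searched. The work was done in Python 3.11.15 with pandas 2.3.3, numpy 2.4.6 and scipy 1.17.1, and figures were drawn with matplotlib 3.10.9.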

Additional observations from a re-analysis of the deposited data

Results flagged for a closer look

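VST moved 32 of the 156 named genes by 2-fold or more in opposite directions in the 2 media, 25 of them higher in normal medium and lower in 2DG and 7 the other way round. Over all 8429 genes this held for 108 (1.28%), of which 87 were higher and 21 lower in normal medium, and the named genes were in large part chosen for a large VST difference. With 1 array a condition the difference between media was not tested for any of them, and the 2DG+VST array had poly-A controls 0.47 higher than the 2DG array. Each value is the log2 difference of 2DG+VST minus 2DG less that of VST minus control.

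Among ATF4 targets and other stress genes it was −7.92 for INHBE, −7.75 for DDIT4, −5.75 for TRIB3, −5.45 for SLC7A11, −5.22 for ASNS, −4.86 for NUPR1, −4.72 for PCK2, −4.22 for CREBRF and −2.40 for NFE2L1. The tRNA synthetase genes SARS1 and WARS1 gave −3.23 and −3.34, and the unfolded protein response genes ERN1 and XBP1 −3.23 and −2.71. S100P gave −5.76 and OSCAR −5.43, but their 2DG+VST levels (3.38 and 3.27) were close to the background median of that array (3.23). For FUT1 and NMRAL2P the 2DG+VST level was under the background median. As bounds, 2DG+VST minus 2DG was −1.07 or lower for FUT1 and −1.70 or lower for NMRAL2P. The value from the levels as deposited was −4.50 each, so its size is uncertain.

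Signalling, matrix and transport genes followed with −5.32 for SKIL, −4.94 for VEGFA, −4.29 for IL1A, −4.10 for COL6A3, −3.94 for WIPI1, −3.72 for NPC1, −3.56 for SLC2A3 and −3.49 for ARRDC3. The 7 genes that were lower with VST in normal medium and higher with it in 2DG were ND6 (5.04), DCLK1 (4.63), HMGCS1 (4.49), MCM10 (2.88), EBP (2.49), KIF11 (2.20) and BIRC5 (2.08). Of the lists, the median changed by −2.77 for ATF4 and CHOP targets, −0.93 for tRNA synthetases and 1.46 for DNA replication genes. Over all genes the median was −0.02 in normal medium and −0.18 in 2DG.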

How the results depend on the processing

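No paired analysis was possible because each condition had 1 array. The count of 443 higher probe sets, of 15503, was 1530 at 1.5-fold and 114 at 3-fold. It was 234 of 8394 without probe sets that may match several transcripts and 207 of 8429 as genes. The count of 522 lower probe sets, of 15503, was 1798 at 1.5-fold and 87 at 3-fold. It was 339 of 11454 with a limit of log2 7, 891 of 54613 with no filter and 209 of 8429 as genes. The other settings gave 313 to 599 higher and 370 to 718 lower. A setting that changes the number of probe sets or genes counted also changes these counts, so they are to be read beside their totals. The 4 cholesterol genes past 2-fold were 7 with quantile normalization or poly-A scaling. Some list medians near 0 turned below it, with scaling on the poly-A controls for ER translocation (−0.0012), YAP and SRF targets (−0.0137), BMP and TGF-β targets (−0.0128) and mesenchymal markers (−0.0395), with quantile normalization for the last (−0.0168), and with the median over probe sets for BMP and TGF-β targets (−0.0641). The other 168 of 174 values of list medians moved by less than 0.44, the robust SD of all differences. Of 758 values of named genes 748 did so too, and 10 moved further, all when a gene was given by the median of its probe sets. These were TXNIP (−0.37), CD44 (0.98), GOSR2 (−0.16), HK2 (0.17), SEL1L (0.28), PRKAB2 (1.56), ERN1 (1.004), NPC1 (0.51), ATF3 (1.52) and EGR1 (1.75). By the median of their probe sets 6 of the 77 named genes past 2-fold were under it, DNAJB1, SRSF1, BIRC5, VEGFA, SKIL and NPC1. Dim control signals limit the differences of TNFSF15, FUT1, S100P, OSCAR, EGR1, NMRAL2P and NUPR1. The control levels of IL6 (4.13), MXD1 (4.46) and CREBRF (4.57) were also low.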
